A study of Mus musculus with 16 samples.

Results

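Among 8 Lhx1-null cultures differentiated toward definitive endoderm (DE), 2 stood apart from the other 6 by a very low signal of the Lhx1 probe ILMN_1225672. They are null day 5 replicate 4 and null day 6 replicate 2, called the divergent cultures here, and where a pair of values is given for them the day 5 culture comes first. The other 6 nulls are replicates 1, 2 and 3 of day 5 and replicates 1, 3 and 4 of day 6. The cultures were chosen by this measured Lhx1 intensity, and the genes were selected on the levels of the same 8 arrays, so each difference between the 2 and the 6 is a description with no test. Of 10939 genes measured, 1362 were above all 6 other nulls in both divergent cultures (12.5%) and 1147 were below all 6 in both (10.5%).

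The series holds 16 cultures, each on 1 Illumina Mouse WG-6 v2 array. Cells of null (Lhx1-/-) and wild-type (Lhx1+/+) ES cell lines, derived from blastocysts of a heterozygous intercross, were cultured for 5 or 6 days without LIF, and all received ActivinA and EGF. Each genotype has 4 cultures at day 5 and 4 at day 6. The methods name 4 independent lines of each genotype, but the labels do not say which line a culture came from. Whether the 2 divergent cultures share a line is thus not known from the labels. Their signal of the Y-linked gene Eif2s3y, given below, differed, and line identity was not tested. The titles number the null day 6 cultures 1 to 4, while the descriptions of 2, 3 and 4 all say replicate 2, and the titles were used. Each is a whole culture, so fewer cells of a type and less RNA per cell cannot be told apart.

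Activin stands in for Nodal, the TGF-beta family ligand that patterns the primitive streak through the receptors Acvr1b and Acvr2b, the coreceptor Tdgf1 (Cripto) and the effectors Smad2, Smad3 and Foxh1. High signalling yields anterior streak derivatives, namely the anterior mesendoderm and DE, through Eomes, a T-box factor, and Lhx1, a LIM-homeodomain factor that binds DNA together with the cofactor Ldb1. The posterior streak, exposed to BMP and Wnt, gives rise to extraembryonic and lateral plate mesoderm, including the allantois and the first blood and endothelium. Cdx2 and the Hox genes mark posterior identity in these tissues.

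The raw intensity of probe ILMN_1225672 was 370.2 in null day 5 replicate 4 and 963.5 in null day 6 replicate 2. It was 9147 to 22096 in the other 6 nulls and 13124 to 31578 in the 8 wild-type cultures. A second Lhx1 probe, ILMN_2716543, not used to choose the cultures but reading the same transcript on the same arrays, gave 310.2 and 602.2 in the divergent cultures, 5743 to 14621 in the other nulls and 11193 to 25739 in wild-type. Both probes were above background in both divergent cultures at a detection p of 0. The sources used here do not place either probe inside or outside the deleted exons, so Lhx1 signal in a null culture does not check its genotype.

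**Figure D1:**
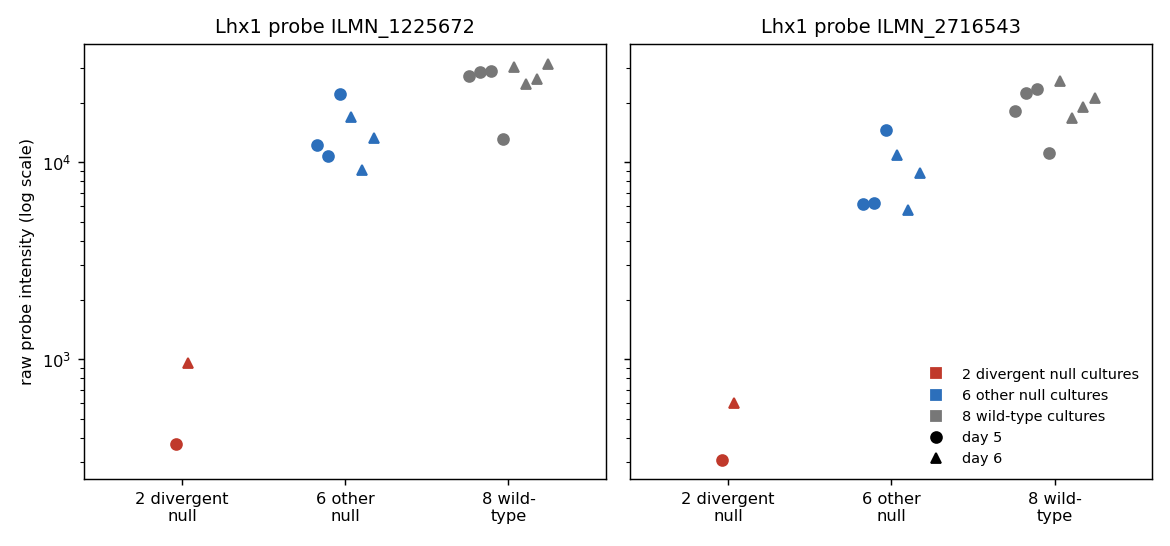
Raw intensity of the 2 Lhx1 probes (log scale) in each array, grouped as 2 divergent nulls, 6 other nulls and 8 wild-type cultures, with circles for day 5 and triangles for day 6. The divergent cultures reach at most 963.5 with either probe and the other 14 arrays at least 5743.

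Levels are given as background-corrected, quantile-normalized log2 intensities with an offset of 16, which shrinks differences among dim genes. The difference of means, divergent minus other nulls, exceeded 1 log2 unit for 486 of the 1362 higher genes and 452 of the 1147 lower ones, and 2 log2 units for 135 and 145. A gap of over 1 log2 unit between the nearer divergent culture and the nearest other null separated 138 higher and 133 lower genes. The widest gaps were those of Tbx4, at 4.09, and Eomes, at 4.02. At the edge of the choice, Mapre2 was included at 10.7885 in the lower divergent culture against 10.7877 in the highest other null, and Fubp3 was left out, since its higher divergent culture and its lowest other null were both at 12.3736. The filter on dim genes asked for 4 arrays above background, and some higher genes reached it only with the divergent arrays, a choice that favours high levels there. Those in the gene lists or among the 12 largest positive differences are named where these are described.

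Median raw intensity was 183.0 and 203.2 on the divergent arrays, 214.3 to 273.6 on the other null and 204.6 to 306.7 on the wild-type arrays, so the divergent pair had the lowest medians of the series. Probes with a detection p below 0.01 came to 14528 and 15453 in the divergent cultures, 10734 to 15319 in the other nulls and 11207 to 14928 in wild-type. Over genes, the divergent cultures correlated at 0.969 with each other, at 0.878 to 0.933 with the other nulls and at 0.872 to 0.912 with wild-type. The other nulls correlated at 0.922 to 0.969 among themselves and at 0.867 to 0.959 with wild-type. On raw log2 intensities 724 genes were above and 2229 below, in place of 1362 and 1147, and the part of array brightness in the counts was not tested. Of 10 reference genes such as Actb and Gapdh none was a member on normalized levels of the brightest probe. Another Actb probe stood above, at 15.02 and 15.07 in the divergent cultures, against 14.49 to 14.92 in the other nulls. A further one, at 13.06 and 13.38, lay within the range of the other nulls, 12.54 to 14.09.

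Most markers of the primitive streak and nascent mesoderm were lower. Of 15 measured genes of this list, 13 were below all other nulls, 1 was above (Pdgfra) and 1 (Snai1) was neither, with a median difference of -2.58 against -0.01 over all genes. Eomes, which initiates the DE and cardiac mesoderm programmes, stood at 5.51 and 6.27 in the divergent cultures, 10.29 to 11.22 (median 11.09) in the other nulls and 9.30 to 10.41 (median 9.92) in wild-type. It was above background in all 14 other arrays and in neither divergent culture, at least 16.4-fold lower than in the other nulls. A second Eomes probe also read above background in none of the 2 and all of the 6, at least 13.4-fold lower. The divergent cultures lay below all 14 others with either probe, and the other nulls overlapped wild-type with both.

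Mesp1, the bHLH factor of early cardiovascular mesoderm, read 6.02 and 6.77 in the divergent cultures, 9.26 to 11.53 (median 10.82) in the other nulls and 6.74 to 10.13 (median 8.84) in wild-type. It was not above background in the divergent cultures and at least 12.1-fold lower than in the other nulls. Mixl1, a homeobox gene of the streak, was detected in both but lower, with 7.76 and 8.42 in the divergent cultures, 11.53 to 12.29 (median 12.15) in the other nulls and 7 to 11.39 (median 9.86) in wild-type. The divergent values of Mixl1 fell within the wild-type range. Fgf8, the ligand needed for cells to leave the streak, had 8.57 and 8.33 in the divergent cultures, 12.42 to 13.56 (median 12.96) in the other nulls and 12.20 to 13.38 (median 12.79) in wild-type, a difference of -4.53. The divergent pair were close to each other in Fgf8 and lay far below all 14 other cultures.

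Wnt ligands of the streak were among the lower genes. Wnt3a was at 5.32 and 5.30 in the divergent cultures, 6.39 to 10.48 (median 8.44) in the other nulls and 5.38 to 8.40 (median 5.63) in wild-type, below background in both divergent cultures. Wnt3 had 8.12 and 7.45 in the divergent cultures, against 9.51 to 10.67 (median 10.10) in the other nulls, and Wnt8a had 6.15 and 6.48 in the divergent cultures, against 8.27 to 10.66 (median 9.79) in the other nulls. Sp5, a direct transcriptional target of Wnt signalling, had 8.25 and 8.42 in the divergent cultures, 10.74 to 12.53 (median 12.07) in the other nulls and 8.46 to 12.36 (median 10.68) in wild-type. In the wider Wnt list 9 of 31 genes were below and 2 above, with a median difference of -0.50. The higher ones were the non-canonical ligand Wnt5a, with 12.58 and 12.40 in the divergent cultures, against 10.27 to 12.14 (median 10.85) in the other nulls, and the receptor Fzd3. Axin2 and Lef1, both common readouts of canonical Wnt signalling, were not members.

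**Figure D2:**
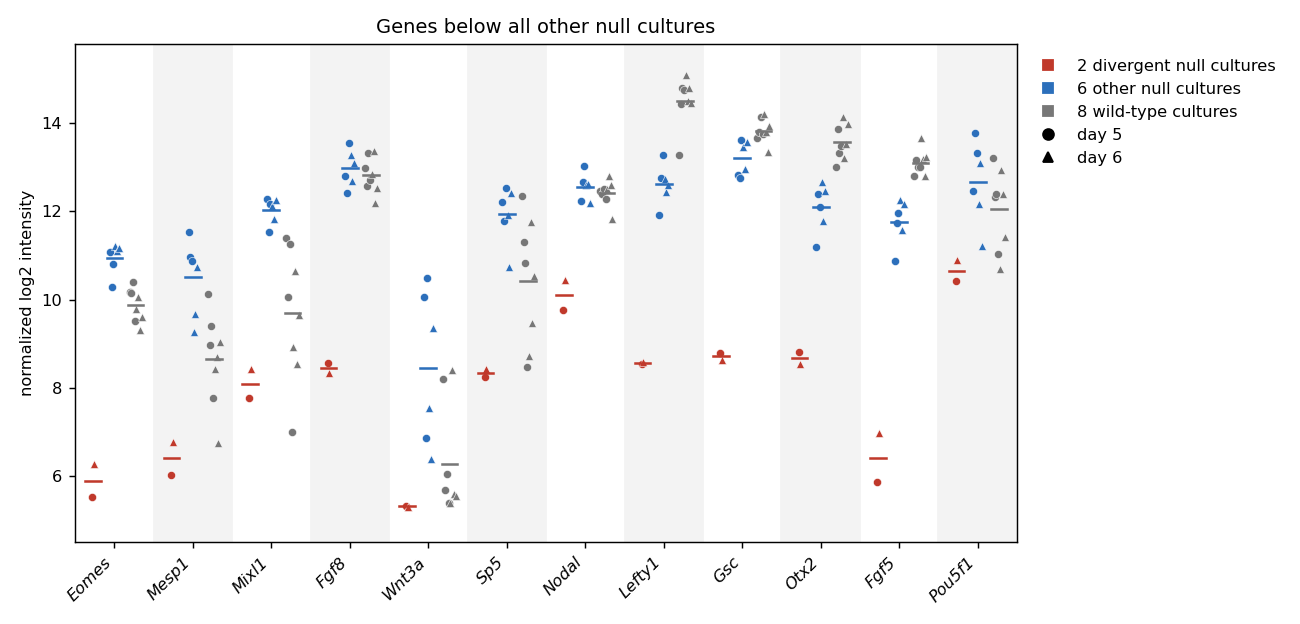
Normalized log2 intensity of 12 genes that were below all other nulls in both divergent cultures, per array, with the group mean as a bar. Red divergent points lie below every blue point for each gene, and for Mesp1, Mixl1, Wnt3a, Sp5 and Pou5f1 they lie near or within the lower part of the wild-type values.

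Of 15 Nodal pathway genes, 8 were below and 4 above (median difference -0.97). The ligand Nodal itself read 9.77 and 10.44 in the divergent cultures, 12.20 to 13.04 (median 12.62) in the other nulls and 11.82 to 12.80 (median 12.48) in wild-type. The feedback inhibitors followed, Lefty1 with 8.55 and 8.59 in the divergent cultures, 11.91 to 13.28 (median 12.67) in the other nulls and 13.27 to 15.09 (median 14.63) in wild-type and Lefty2 with 9.51 and 9.27 in the divergent cultures, against 11.42 to 12.72 (median 11.78) in the other nulls. Cer1, a secreted Nodal and BMP antagonist of anterior endoderm, was below background in both divergent cultures and at 7.30 to 10.70 (median 8.58) in the other nulls, of which 5 of 6 were above background. Further lower genes were Acvr2b (-0.27), Foxh1 (-0.94) and the convertase Pcsk6 (-1.39). In the opposite direction lay the receptor Acvr1b (0.70), Smad2 (0.60), Smad3 (1.17) and Furin (0.92), another convertase of the Nodal precursor.

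The coreceptor Tdgf1 had 5.51 and 5.80 in the divergent cultures, 8.28 to 9.69 (median 8.87) in the other nulls and 5.69 to 9.08 (median 7.44) in wild-type, at least 3.98-fold lower and below background in both divergent cultures. Mouse Tdgf1 has near-identical gene copies that a probe may also read. Its promoter is shown because it holds the Foxh1-type motif AATNNACA, in capitals, in 2 places, starting 127 and 101 bases before the RefSeq start (GRCm38.p6, chr9:110946159-110946408, minus strand, 250 bases upstream of the start).
Tdgf1: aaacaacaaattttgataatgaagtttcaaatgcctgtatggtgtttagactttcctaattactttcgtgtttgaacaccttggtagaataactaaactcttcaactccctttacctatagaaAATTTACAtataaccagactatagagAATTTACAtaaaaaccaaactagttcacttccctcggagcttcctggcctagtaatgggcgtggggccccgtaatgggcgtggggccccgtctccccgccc
Searched on both strands, the motif occurs at least once in 10.9% and at least 2 times in 1.12% of 32851 RefSeq promoters of this length. Of the 9 measured Nodal pathway genes with a promoter in the table, 1 held it. A match of letters is a description and not a binding site.

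FGF genes lay on both sides. The ligands Fgf5, Fgf8 and Fgf10 and the feedback or output genes Spry4, Dusp6, Etv4 and Etv5 were below (7 of 12 measured), while the ligands Fgf3 and Fgf15 and the receptor Fgfr2 were above, with a median difference of -1.36. Fgf3 passed the filter only with the divergent arrays. Fgf5, a ligand of the primed epiblast, showed the second largest difference of all lower genes (-5.35), with 5.85 and 6.98 in the divergent cultures, 10.88 to 12.26 (median 11.85) in the other nulls and 12.80 to 13.67 (median 13.09) in wild-type. Fgfr2 had 12.13 and 11.96 in the divergent cultures, against 7.38 to 10.58 (median 9.39) in the other nulls. Dusp6, a phosphatase induced by ERK signalling, had 11.32 and 11.72 in the divergent cultures, against 12.63 to 13.35 (median 13.01) in the other nulls. Among 17 BMP genes, 6 were below, among them the antagonists Chrd, Fst and Bmper and the effector Smad1, and Smad5 and Id2 were above. Bmp4 was no member, at 12.66 and 12.26 in the divergent cultures, 10.91 to 13.06 (median 12.61) in the other nulls and 7.85 to 10.18 (median 9.38) in wild-type, and all 8 nulls lay above all wild-type cultures.

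Part of the anterior mesendoderm and DE markers was lower. Of 20 measured genes of anterior mesendoderm, node and notochord, 8 were below and 1 above (Epb41l5), with a median difference of -0.64. Gsc, the organizer homeobox gene, had 8.79 and 8.63 in the divergent cultures, 12.77 to 13.62 (median 13.22) in the other nulls and 13.35 to 14.22 (median 13.81) in wild-type. Otx2, the head and anterior endoderm homeobox gene, read 8.81 and 8.53 in the divergent cultures, 11.19 to 12.67 (median 12.25) in the other nulls and 13 to 14.14 (median 13.52) in wild-type, and its paralogue Otx1 was below background in both divergent cultures alone, at least 10.8-fold lower. Shh and Hhex were no members. Hhex had 9.86 and 10.36 in the divergent cultures, 9.79 to 10.76 (median 10.20) in the other nulls and 11.36 to 13.27 (median 12.82) in wild-type, so that all nulls lay below wild-type and the divergent pair lay among the other nulls. That pattern differs from the one of Gsc, whose level in the other 6 nulls overlapped wild-type.

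Of 16 DE genes, 8 were below and 2 above (Cdx2 and Pyy), median difference -1.06. Foxa2, the forkhead factor of endoderm and midline, was at 5.88 and 6.45 in the divergent cultures, 7.84 to 9.28 (median 8.69) in the other nulls and 9.93 to 10.60 (median 10.23) in wild-type. It was at least 3.28-fold lower in the divergent cultures than in the other nulls. Sox17 had 8.21 and 9.34 in the divergent cultures, 9.82 to 11.37 (median 10.74) in the other nulls and 11.78 to 12.61 (median 12.21) in wild-type, and Cxcr4, a chemokine receptor used to sort DE, had 9.83 and 9.38 in the divergent cultures, 10.23 to 11.46 (median 10.88) in the other nulls and 10.59 to 11.92 (median 11.05) in wild-type. For Foxa2 and Sox17 the order of the groups was the divergent cultures lowest, the other nulls in between and wild-type highest, without overlap. As a check of the labelled DE, Gsc, Cxcr4 and Sox17 were above background in both divergent cultures, and Foxa2, Cer1 and Eomes in neither.

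Pluripotency genes shared with the early epiblast were partly lower, 6 of 17 below and none above. Pou5f1 (Oct4) had 10.42 and 10.89 in the divergent cultures, 11.21 to 13.78 (median 12.78) in the other nulls and 10.69 to 13.22 (median 12.36) in wild-type, and Nanog had 8.82 and 9.56 in the divergent cultures, 10.06 to 12.28 (median 11.26) in the other nulls and 9.48 to 11.64 (median 10.15) in wild-type. Dnmt3b, the de novo methyltransferase of the epiblast, had 13.33 and 13.46 in the divergent cultures, against 14.42 to 14.90 (median 14.52) in the other nulls. Sox2, Klf5 and Esrrb were no members. Of 22 epithelial genes 6 were below, among them Cdh1 (E-cadherin) with 8.61 and 9.25 in the divergent cultures, 10.06 to 11.47 (median 10.53) in the other nulls and 10.46 to 11.86 (median 11.27) in wild-type, and Krt19 and Pkp2 were above. In both lists a majority of genes was neither above nor below.

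The largest differences also included genes outside the lists. Pga5, a pepsinogen, had the largest difference, -5.38, with 6.66 and 8.23 in the divergent cultures, 11.48 to 14.32 (median 12.60) in the other nulls and 12.41 to 15 (median 14.69) in wild-type. Usp18, which removes the ubiquitin-like ISG15, had 7.82 and 7.11 in the divergent cultures, 10.38 to 12.38 (median 11.53) in the other nulls and 9.92 to 12.11 (median 11.34) in wild-type. Trim9, a ubiquitin ligase best known from brain, and Them5, a mitochondrial thioesterase, were below background in both divergent cultures and at least 8.84-fold and 10.5-fold lower than in the other nulls. Over the whole array, 28 of the 45281 probes, of 24 named genes, were above background in all 14 other arrays and in neither divergent culture. Besides Eomes, Otx1, Foxa2 and Them5 they included Zic2, Nrcam, a neural adhesion molecule, and a dimmer probe of Cyp26a1, which degrades retinoic acid. The brightest Cyp26a1 probe was above background in both divergent cultures, at 9.07 and 9.99, against 10.62 to 12.53 in the other nulls.

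On the higher side, Tbx4, a T-box gene of allantois and hindlimb, had the largest difference (5.42) of all higher genes that passed the filter. It stood at 12.94 and 11.97 in the divergent cultures, 5.63 to 7.88 (median 7.24) in the other nulls and 5.53 to 6.14 (median 5.83) in wild-type. Only 2 of the other nulls and no wild-type culture had Tbx4 above background. Of lateral plate and extraembryonic mesoderm, 12 genes were measured and 5 were above and none below, with a median difference of 0.74. Tbx4 and Bmp5 passed the filter only with the divergent arrays, and of the other 10 genes 4 were above. Foxf1, a forkhead factor of extraembryonic and splanchnic mesoderm, had 10.89 and 10.17 in the divergent cultures, 5.48 to 9.27 (median 7.80) in the other nulls and 5.26 to 5.77 (median 5.64) in wild-type, Prrx1, of limb and lateral plate mesenchyme, had 9.72 and 8.94 in the divergent cultures, against 6.65 to 8.18 (median 7.18) in the other nulls, and Irx3 had 12.58 and 11.80 in the divergent cultures, against 9.91 to 11.40 (median 11.02) in the other nulls. Tbx3, Msx1 and Bmp4 of the same list were not members.

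Of 8 posterior patterning genes, 6 were above and 1 (Evx1) was below, with a median difference of 2.71. Hoxd9 and Hoxd10 passed the filter only with the divergent arrays, and without them 4 of 6 were above, with a median of 1.56. Cdx2, the caudal homeobox gene, read 12.81 and 11.89 in the divergent cultures, 8.19 to 11.23 (median 9.53) in the other nulls and 5.83 to 10.06 (median 7.42) in wild-type. Hoxc6 had 11.36 and 11.19 in the divergent cultures, 6.86 to 9 (median 8.09) in the other nulls and 5.90 to 7.89 (median 7.35) in wild-type, Hoxb2 had 10.69 and 10.21 in the divergent cultures, against 6.50 to 9.28 (median 7.91) in the other nulls, and Hoxd9 and Hoxd10 were above background in 2 of the other 6 nulls and in no wild-type culture. Most Hox genes were too dim for the filter, which asked for 4 arrays above background. With a filter of 2 arrays, 16 of 21 Cdx and Hox genes were above, but a gene that passes through the 2 divergent arrays alone must differ, so this count supports nothing by itself. Hoxb7 at 12.01 and 10.97 in the divergent cultures, 5.47 to 6.52 (median 5.51) in the other nulls and 5.24 to 6.40 (median 5.42) in wild-type and Hoxb5 at 11.29 and 10.80 in the divergent cultures, 5.39 to 6.90 (median 5.72) in the other nulls and 5.45 to 7.25 (median 5.84) in wild-type are examples, at least 18-fold and 13.2-fold higher than in the other nulls.

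Among LIM-domain genes, Lhx1 was the only member that was lower. Of 8 measured LIM and Ldb1 cofactor genes, Isl1, Lmo2 and Ssbp2 were above and Lhx1 was below. Isl1, the LIM-homeodomain factor of second heart field and hindlimb, stood at 11.82 and 11.23 in the divergent cultures, 8.45 to 10.95 (median 9.32) in the other nulls and 8 to 13.18 (median 11.54) in wild-type. Its wild-type cultures spanned the divergent values, so Isl1 was high against the other nulls only. Lmo2, a LIM-only bridging protein of blood and endothelial complexes, had 11.18 and 12.16 in the divergent cultures, 9.56 to 11.14 (median 10.59) in the other nulls and 7.57 to 9.56 (median 8.90) in wild-type, and the nulls lay at or above the wild-type maximum. Tbx20, a cardiac and lateral plate T-box factor, had 10.09 and 10.07 in the divergent cultures, 6 to 8.88 (median 8.57) in the other nulls and 5.62 to 8.95 (median 8.06) in wild-type. Of 9 heart field factors 4 were above and 1 (Mesp1) below. Smarcd3, among the 4, passed the filter only with the divergent arrays. Hand1, dim elsewhere, was above background only in the divergent cultures, at 9.94 and 9.73 in the divergent cultures, against 5.39 to 7.65 (median 6.23) in the other nulls.

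**Figure D3:**
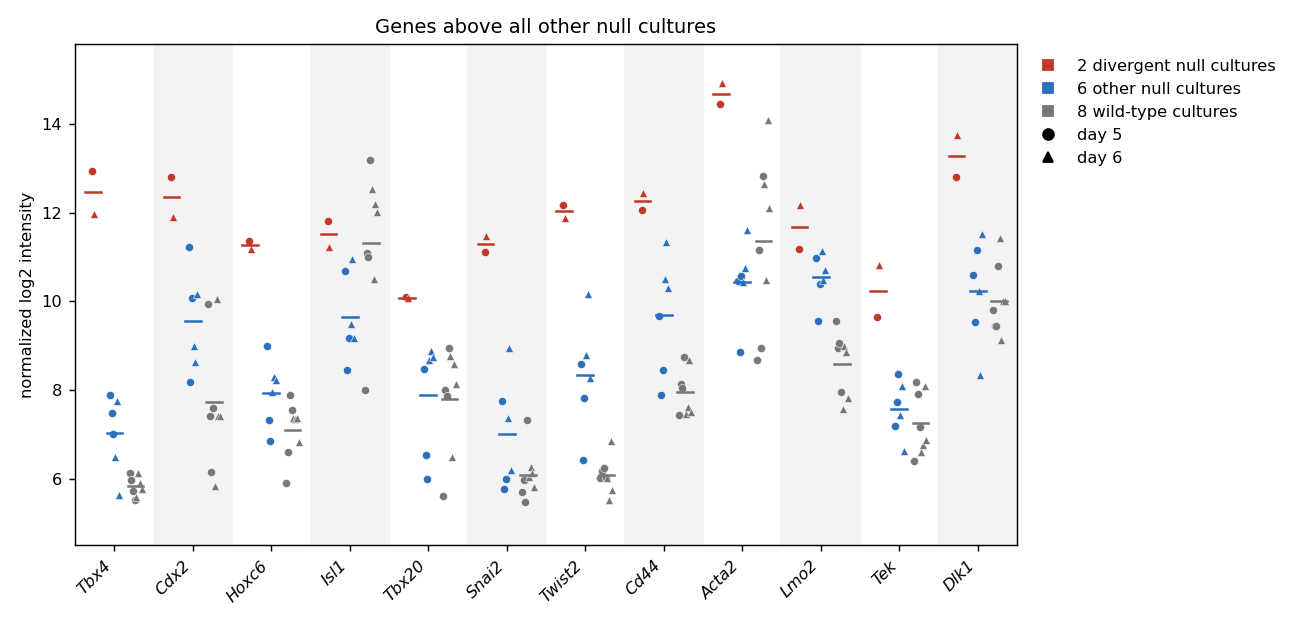
Normalized log2 intensity of 12 genes that were above all other nulls in both divergent cultures, per array, with the group mean as a bar. Red divergent points lie above every blue point, and for Isl1 and Acta2 wild-type points reach or nearly reach them.

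Many mesenchymal genes were higher. In the list of mesenchyme and epithelial-mesenchymal transition, 8 of 14 were above, 6 were neither and none was below, with a median difference of 1.18. Snai2 passed the filter only with the divergent arrays, and without it 7 of 13 were above, with a median of 0.87. Snai2, a zinc-finger repressor of epithelial genes, read 11.11 and 11.47 in the divergent cultures, 5.78 to 8.94 (median 6.79) in the other nulls and 5.47 to 7.32 (median 6.01) in wild-type. Twist2 had 12.18 and 11.87 in the divergent cultures, 6.43 to 10.17 (median 8.42) in the other nulls and 5.53 to 6.85 (median 6.02) in wild-type, Twist1 had 11.36 and 11.19 in the divergent cultures, against 8.48 to 10.15 (median 9.28) in the other nulls, and Zeb1 had 11.13 and 11.26 in the divergent cultures, against 8.46 to 10.05 (median 9.52) in the other nulls. Cd44, the hyaluronan receptor, had 12.06 and 12.44 in the divergent cultures, 7.88 to 11.34 (median 9.99) in the other nulls and 7.44 to 8.74 (median 7.83) in wild-type. Snai1, Vim and Fn1 were no members, so the higher genes did not include all transition factors.

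Of 10 measured contractile genes, 5 were above and 1, the atrial light chain Myl7, was below. Acta2, smooth muscle actin, had 14.44 and 14.91 in the divergent cultures, 8.85 to 11.60 (median 10.51) in the other nulls and 8.67 to 14.09 (median 11.63) in wild-type. Further Acta2 probes gave the same order, for example 12.28 and 13.73 in the divergent cultures, against 5.97 to 8.47 (median 7.78) in the other nulls. The other higher genes were Tpm1 and Tpm2, tropomyosins, Myl9, a smooth muscle light chain, and Tnnc1, cardiac troponin C. Tnnc1 had 9.75 and 10.74 in the divergent cultures, 6.16 to 8.82 (median 7.75) in the other nulls and 6.81 to 12.1 (median 9.45) in wild-type. Its wild-type cultures spanned the divergent values, so Tnnc1 was high against the other nulls only. Among genes too dim for the filter, Tagln (SM22), another smooth muscle gene, was above background in the divergent cultures only, at 8.70 and 9.74 in the divergent cultures, against 5.50 to 6.53 (median 5.83) in the other nulls. Smooth muscle genes commonly carry CArG boxes, to which serum response factor binds, so the Acta2 promoter is shown with the 2 matches in capitals, which start 84 and 34 bases before the RefSeq start (GRCm38.p6, chr19:34255374-34255623, minus strand, 250 bases upstream of the start).
Acta2: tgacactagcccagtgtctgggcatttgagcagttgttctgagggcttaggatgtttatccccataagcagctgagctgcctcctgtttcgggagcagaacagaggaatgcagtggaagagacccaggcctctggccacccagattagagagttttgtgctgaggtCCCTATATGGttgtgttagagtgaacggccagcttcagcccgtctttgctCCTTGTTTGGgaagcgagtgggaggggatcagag
A CArG box was taken as CC and GG around 6 bases of which at least 5 are A or T, a palindromic pattern that reads the same on both strands. It occurred in 8.59% of 32851 promoters of this length, and at least 2 times in 0.67%. Of the 10 contractile genes, 6 held it, of which 3 were members and 3 were not. The members were Acta2 and Myl9, which were higher, and Myl7, which was lower.

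Blood and endothelial genes were higher in part. With the filter of 4 arrays, 6 of 13 were above and none below, median difference 1.10. Gata1, Gata2 and Klf1 passed it only with the divergent arrays, and without them 5 of 10 were above, with a median of 0.80. Tek (Tie2), an endothelial angiopoietin receptor, had 9.64 and 10.82 in the divergent cultures, 6.63 to 8.37 (median 7.59) in the other nulls and 6.40 to 8.17 (median 7.02) in wild-type, and Gata2, a blood progenitor factor, had 8.74 and 10.25 in the divergent cultures, 5.26 to 8.24 (median 6.46) in the other nulls and 5.81 to 6.75 (median 6.07) in wild-type. Egfl7, secreted by endothelium, had 13.21 and 13.23 in the divergent cultures, 11.75 to 12 (median 11.94) in the other nulls and 11.41 to 11.98 (median 11.83) in wild-type, where all arrays were bright and the divergent pair alone stood apart. Kdr, Etv2, Runx1 and Gata1 were no members. Etv2, which acts before Tek in the same lineage, had 11.26 and 11.58 in the divergent cultures, 10.27 to 11.89 (median 10.89) in the other nulls and 7.78 to 11.21 (median 8.91) in wild-type.

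With the 2-array filter, 19 of 26 blood and endothelial genes were above and none below, with the reservation given for the Hox genes. Embryonic globins were among them. Hbb-bh1, a beta-like globin of primitive red cells, read 13.83 and 14.84 in the divergent cultures, 5.40 to 6.60 (median 5.67) in the other nulls and 5.24 to 9.45 (median 5.49) in wild-type, at least 129-fold higher than in the other nulls. Hba-x, the embryonic alpha-like globin, had 10.70 and 14.60 in the divergent cultures, 5.16 to 6.21 (median 5.75) in the other nulls and 5.09 to 8.70 (median 5.65) in wild-type, and Hbb-y had 10.30 and 14.36 in the divergent cultures, 5.21 to 5.43 (median 5.35) in the other nulls and 5.17 to 8.42 (median 5.43) in wild-type. With these probes wild-type day 6 replicate 4 also had globin signal above background, at 9.45 for Hbb-bh1, and none of the other nulls did. A second, dimmer Hbb-bh1 probe differed, with 5.92 and 7.95 in the divergent cultures, of which 1 was above background, 5.64 to 6.48 in the other nulls, none above background, and 5.55 to 7.28 in wild-type, with 2 cultures above background. Globin probes may read more than 1 of the closely related globin genes.

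Factors of the same lineages were above background in the divergent cultures alone. These were Tal1, needed for all blood formation, at 9.69 and 10.28 in the divergent cultures, against 5.18 to 5.97 (median 5.40) in the other nulls, Nfe2, an erythroid and megakaryocyte factor, at 9.60 and 11.69 in the divergent cultures, against 5.63 to 6.14 (median 5.89) in the other nulls, Cdh5 (VE-cadherin), at 8.64 and 9.70 in the divergent cultures, against 5.58 to 6.69 (median 5.89) in the other nulls, and the SoxF genes Sox7 and Sox18. In all, 245 of the 45281 probes, of 191 named genes, were above background in both divergent cultures and in none of the other 14. This counts detection and not level, and some of the 245 were not higher. Ptprr, for example, had 7.13 and 6.99 in the divergent cultures, against 6.54 to 7.36 in the other nulls. Some of the 191 genes also had a brighter probe that read above background elsewhere. That of Igsf11 did so in 4 of the other nulls and all 8 wild-type cultures. Matrix genes were among the 245 probes, with Col1a1, fibrillar collagen of mesenchyme, at 10.20 and 9.92 in the divergent cultures, against 5.37 to 5.78 (median 5.48) in the other nulls, beside Col6a1, Lum and Dcn. With the filter of 4 arrays, 4 of 10 matrix genes, Col5a1, Vcan, Bgn and Tnc, were above and none below, and Bgn passed only with the divergent arrays. Tnc, at 8.74 and 9.30 in the divergent cultures, reached 10.08 in wild-type. For Col5a1, Vcan and Bgn both divergent cultures lay above all wild-type cultures.

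**Figure D4:**
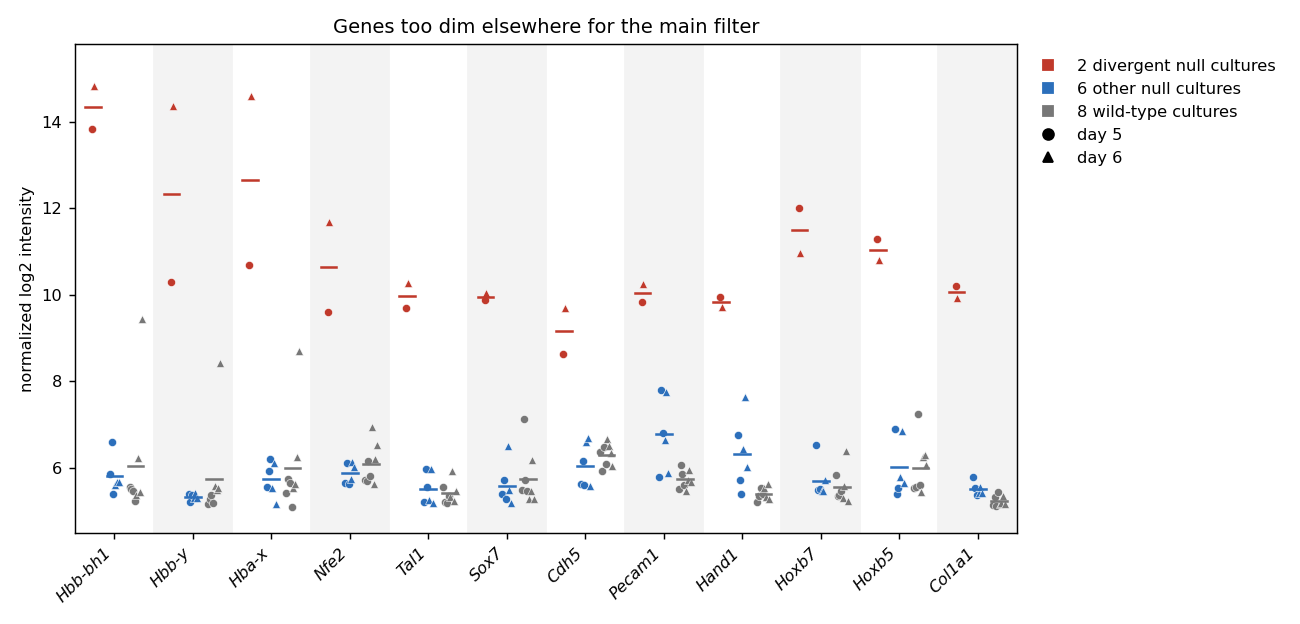
Normalized log2 intensity of 12 genes that were above background on fewer than 4 arrays, chosen after their values were seen, per array, with the group mean as a bar. Red divergent points stand between 8.64 and 14.84, while the blue and grey points of nearly all other cultures lie below 8, with globin signal in wild-type day 6 replicate 4 as the main exception.

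Among the other genes with the largest positive differences, Slc32a1, the vesicular transporter of GABA, had 10.17 and 11.64 in the divergent cultures, 6.04 to 7.23 (median 6.31) in the other nulls and 5.70 to 7.22 (median 6.10) in wild-type, Ednrb, the endothelin B receptor, had 10.76 and 10.91 in the divergent cultures, 5.89 to 8.63 (median 6.11) in the other nulls and 5.28 to 7.64 (median 6.21) in wild-type, and Plac1, a placental gene, had 11.73 and 12.12 in the divergent cultures, 5.81 to 9.99 (median 7.53) in the other nulls and 5.74 to 7.45 (median 6.06) in wild-type. Cd93, an endothelial and myeloid surface protein, was at 9.78 and 9.84 in the divergent cultures, 5.31 to 6.74 (median 5.76) in the other nulls and 6.56 to 8.13 (median 7.35) in wild-type, above background in none of the other nulls and at least 5.62-fold higher. Tspan18, a tetraspanin, was at least 6.61-fold higher. Of these genes, Slc32a1, Ednrb and Tspan18 passed the filter only with the divergent arrays. Arap3, Igsf11, an adhesion molecule, Tmem108 and Spin2c completed the leading 12, with differences of 3.87 to 4.23. Spin2c had near-equal values with a second probe, 13.88 and 13.35 in the divergent cultures against 8.65 to 11.08 in the other nulls.

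Imprinted genes were above in 4 of 17 cases, namely Igf2, Dlk1, Slc38a4 and Impact, and never below, and Slc38a4 passed the filter only with the divergent arrays. Igf2, a fetal growth factor, had 14.96 and 14.80 in the divergent cultures, 11.03 to 14.06 (median 13.31) in the other nulls and 12.04 to 14.96 (median 14.17) in wild-type, and Dlk1, a non-canonical Notch ligand, had 12.80 and 13.75 in the divergent cultures, 8.34 to 11.52 (median 10.42) in the other nulls and 9.12 to 11.43 (median 9.90) in wild-type. Lists of other cell types showed few members. Of 13 visceral and parietal endoderm genes, 2 were above (Apom, which passed the filter only with the divergent arrays, and Plat), and Afp, a defining marker, was above background on no array. Plac1 was the 1 higher gene of 6 measured trophoblast genes, with Tfap2c and Krt7 below. Of 4 neural genes Sox11 and Rax were above and Zic2 below, although the difference in Rax was 0.07 at background level in all null cultures. Of 14 cell cycle genes, 1 (Ccnd2) was below, and of 10 stress genes Ddit3 was above and Trib3 below.

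**Figure D5:**
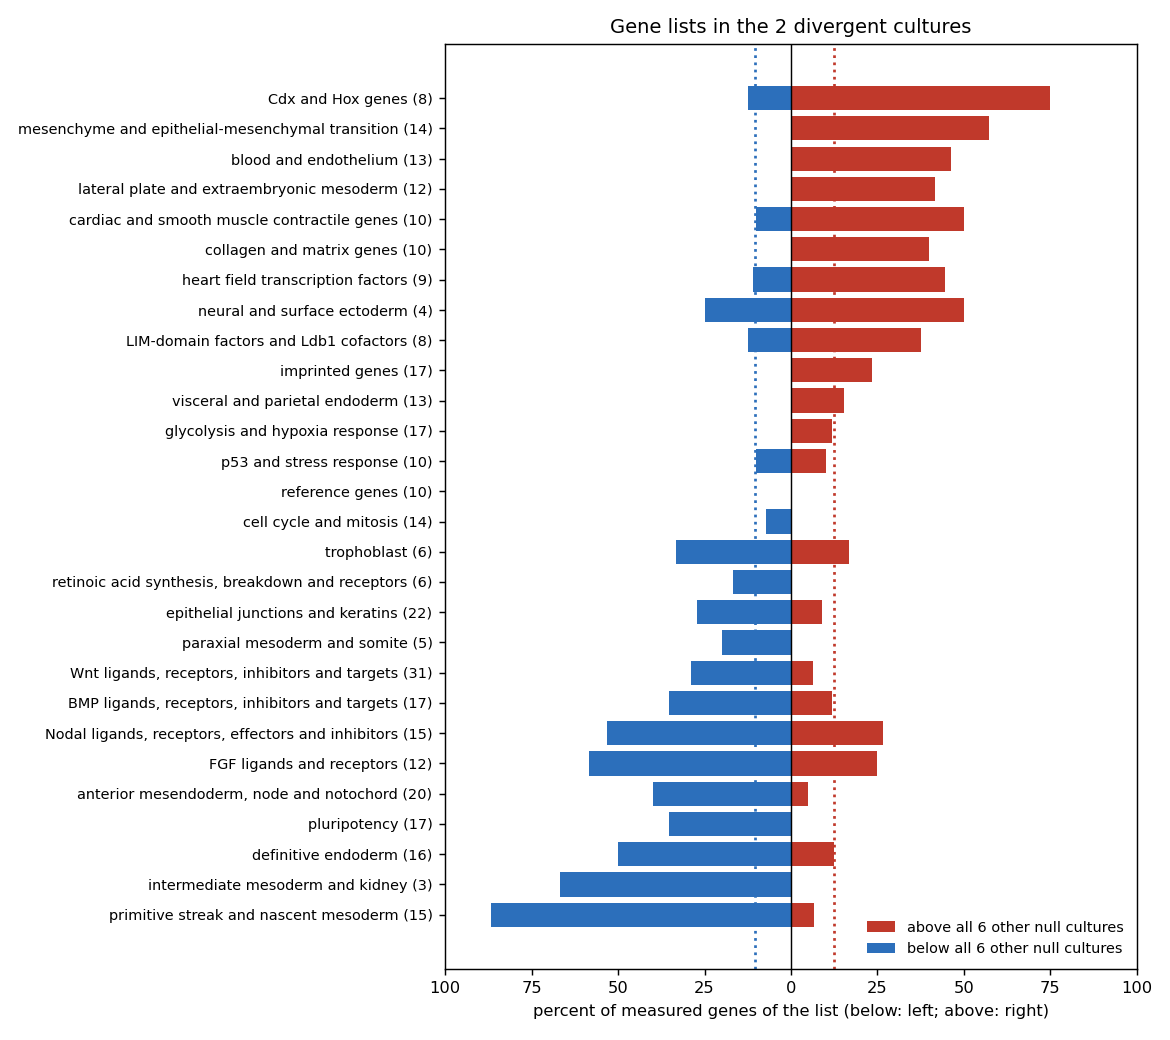
Percent of the measured genes of each list that were above (red, right) or below (blue, left) all 6 other nulls in both divergent cultures, with the number measured in parentheses. Dotted lines mark the same share over all 10939 genes, 12.5% above and 10.5% below.

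The 2 divergent cultures were not identical. Taken alone, null day 5 replicate 4 was above all 6 other nulls in 2513 genes, of which 54.2% were shared, and null day 6 replicate 2 in 2029, of which 67.1% were shared. The below counts were 2141 (53.6% shared) and 1995 (57.5% shared). In 83 genes the day 5 culture was above and the day 6 culture below all 6, and in 47 the reverse held. Of 2509 members, 50 differed by over 1 log2 unit between the 2, with 34 higher in the day 6 culture. Cryab, a small heat shock protein, had 7.57 in the day 5 culture and 9.68 in the day 6 culture. Globins also differed, with Hbb-y at 10.30 at day 5 and 14.36 at day 6, and Klf1, the erythroid activator of adult globin, at 7.69 in the day 5 and 10.32 in the day 6 culture.

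Of the sex-linked transcripts, Eif2s3y differed as well. The Y-linked Eif2s3y was below background in null day 5 replicate 4, at 5.82, and above it in null day 6 replicate 2, at 8.59. Among the other nulls 2 were clearly above background, at 9.25 and 8.93, and 4 lay between 5.25 and 6.33. All 8 wild-type cultures lay between 7.77 and 10.03. Xist, the RNA of the inactive X chromosome, was above background in neither divergent culture, in 2 of the other nulls (10.25 and 9.62) and in no wild-type culture. The 2 divergent cultures did not share their Eif2s3y signal, and neither gene separated them from the other nulls. The mean of Eif2s3y and Uty, another Y-linked gene, was 5.92 and 7.48 in the divergent cultures.

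Against wild-type, both divergent cultures lay above all 8 wild-type cultures in 712 of the 1362 higher genes, within the wild-type range in 398 and below it in 6. Of the 1147 lower genes, 587 were below all wild-type cultures in both, 373 were within the range and 0 were above. Over all genes, both divergent cultures were above all wild-type in 10.9% and below in 11.5%. The members were chosen for high or low levels in the divergent arrays, which favours such positions, so nothing is read from the contrast with all genes. In the lower genes, the median of the other nulls was above the wild-type median in 696 and below it in 451, as for Eomes, Mixl1 and Mesp1 on one side and Gsc, Lefty1 and Fgf5 on the other. In wild-type cultures, day 6 minus day 5 had a median of 0.02 over the higher and 0.00 over the lower genes, against -0.01 over all genes, and limma called no gene between the 2 days (133 at an unadjusted p under 0.05, of which 6 higher and 7 lower members).

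The divergent cultures also enter the comparison of null with wild-type. A limma fit over the 16 arrays called 61 genes at day 5 (0.558% of genes) and 172 at day 6 (1.57%) at a Benjamini-Hochberg adjusted p under 0.05, 54 and 109 of them lower in the nulls. These counts depended on the fit. They also compare genotypes that differed in Y-linked Eif2s3y signal, given above, which the fits cannot fully tell apart from genotype. With the replicate number as a block, the counts were 14 and 90. The labels give no pairing for this block. Deviations of same-numbered null and wild-type cultures correlated at 0.14 to 0.36 at day 5 and -0.04 to 0.44 at day 6. Without null day 6 replicates 3 and 4, whose titles and descriptions conflict, day 6 gave 5. The null day 6 cultures left were then replicate 1 and the divergent replicate 2. The part of the labels in this count was not tested. Leaving out 1 culture gave 11 to 178 at day 5 and 33 to 337 at day 6. Without both divergent cultures the fit called 59 (0.539%) and 199 (1.82%), of which 35 and 119 were called in both fits, all with the same sign. With the block, it called 4 and 138. Of the 1147 lower members, 0.959% were called at day 5 and 2.18% at day 6 with all arrays, and 1.31% and 4.27% without the divergent cultures. Of the 1362 higher members, 0 were called at day 5 and 1.54% at day 6 with all arrays, and 0.661% and 2.28% without. Nothing is read from these shares, since arrays that chose the members enter both fits.

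The members named next were chosen on null arrays that enter both fits, so their fold changes and p-values describe the fits and support nothing about the members. Leaving out arrays in which a gene lies far from its group is bound to move its fold change. Eomes had a log2 fold change, null over wild-type, of -0.64 (SE 1.17, limma adjusted p = 0.882) at day 5 with all arrays and 0.66 (SE 0.25, limma adjusted p = 0.271) without the divergent cultures. At day 6 it had 0.25 (SE 1.17, limma adjusted p = 0.97) with and 1.48 (SE 0.25, limma adjusted p = 0.0118) without them. Trim9 and Them5 at day 6 had 2.98 (SE 0.60, limma adjusted p = 0.0272) and 2.46 (SE 0.46, limma adjusted p = 0.0212) without the divergent cultures, and Trim9 missed the threshold with the block (limma adjusted p = 0.0588).

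Foxa2 at day 5 had -2.47 (SE 0.61, limma adjusted p = 0.0901) with all arrays and -1.84 (SE 0.28, limma adjusted p = 0.0168) without the divergent cultures, so its fold change and its SE were both larger with them. Fgf5 at day 5 had -2.89 (SE 1.24, limma adjusted p = 0.369) with and -1.47 (SE 0.27, limma adjusted p = 0.0336) without them. With the block and without the divergent cultures neither was called at day 5, at limma adjusted p = 0.082 for Foxa2 and 0.135 for Fgf5. Lhx1 was called in neither fit, at -2.22 (SE 1.14, limma adjusted p = 0.469) at day 5 with all arrays and -0.79 (SE 0.27, limma adjusted p = 0.243) without. Genes called either way at day 6 included Shisa2, a Wnt and FGF receptor antagonist, with -3.89 (SE 0.44, limma adjusted p = 0.00327) with all arrays and -3.64 (SE 0.44, limma adjusted p = 0.00261) without the pair. Fzd5, a Wnt receptor, had -3.37 (SE 0.70, limma adjusted p = 0.0281) with all arrays and -2.75 (SE 0.46, limma adjusted p = 0.0121) without the pair, and with all arrays and the block it missed the threshold (limma adjusted p = 0.0658). Lmo2 had 2.81 (SE 0.47, limma adjusted p = 0.0111) with all arrays and 2.46 (SE 0.45, limma adjusted p = 0.0173) without the pair.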

How the data were processed

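RNA of 16 cultures was measured on Illumina Mouse WG-6 v2 arrays, 8 null and 8 wild-type, at days 5 and 6. The authors deposited probe intensities without normalization, each with a detection p-value from GenomeStudio, and a table of rank invariant normalized intensities, which served here as an alternative on the log2 scale with a floor of 16, whereas the log2 levels in the text were computed from the deposited intensities without normalization. Here limma 3.58.1 in R 4.3.3 was used. The neqc function inferred the background from those p-values, removed it, and quantile-normalized after adding 16. Of 45281 probes, 15593 passed a filter of 4 arrays at a detection p below 0.01. Of all probes, 34885 had 1 symbol in the platform annotation, 18 several and 10378 none. The brightest probe stood for each symbol and 1995 probes kept their ID, which gave 10939 genes. The number of cultures limits the precision, and dim genes have the least.

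The members, the gene lists and the tests were chosen with earlier results of these data known. Named genes were the given markers and LIM members, the 12 largest differences in each direction, up to 4 members of each list, defining genes of other cell types, and up to 6 members called in each null against wild-type comparison. Null and wild-type were compared by limma over all arrays with Benjamini-Hochberg adjustment, also checked on simulated data. Where a group was below background on all its arrays, a bound is given: the mean of the bright group against the mean, per array, of the higher of the lowest level above background and the probe's own level. Deviations from group means of same-numbered null and wild-type cultures correlated at 0.14 to 0.36 at day 5 and -0.04 to 0.44 at day 6. The labels give no pairing, so the block rests on the replicate number only. Day 5 alone met the criterion for it. Promoter sequences came from RefSeq (GRCm38.p6). The alternatives were other background correction, offset, normalization and filters, every kept probe, matched days, left-out cultures and the replicate block.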

Additional observations from a re-analysis of the deposited data

Results flagged for a closer look

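In each set of 4 cultures of 1 genotype and day, the culture farthest from the others was compared with Dixon's critical value for the named genes and the second Lhx1 probe, 400 sets in all. Chance flags about 1 in 20 such sets, and 39 were past the value. The genes were named largely for their differences in the divergent cultures, and Lhx1 chose these cultures, so the 29 sets in which a divergent culture was farthest restate that choice and are listed as values only. The value of the far culture is given with the range of its 3 partners. Null day 5 replicate 4 stood apart in Pga5 (6.66, against 11.48 to 11.77), Eomes (5.51, against 10.29 to 11.08), Lhx1 (8.15, against 13.43 to 14.49), Mesp1 (6.02, against 10.88 to 11.53), Mixl1 (7.76, against 11.53 to 12.29), Wnt8a (6.15, against 10.09 to 10.66), Egfl7 (13.21, against 11.82 to 12), Slc2a1 (14.25, against 12.55 to 12.69), Plvap (9.19, against 6.77 to 7.12), Cd93 (9.78, against 5.41 to 5.83), Ednrb (10.76, against 5.89 to 6.17) and Tbx4 (12.94, against 7 to 7.88). Null day 6 replicate 2 stood apart in Pga5 (8.23, against 13.43 to 14.32), Fgf5 (6.98, against 11.59 to 12.26), Eomes (6.27, against 11.10 to 11.22), Fgf8 (8.33, against 12.68 to 13.29), Gsc (8.63, against 12.97 to 13.57), Them5 (5.84, against 10.60 to 11.01), Lefty1 (8.59, against 12.45 to 12.73), Mixl1 (8.42, against 11.84 to 12.26), Fst (9.10, against 11.34 to 11.74), Lefty2 (9.27, against 11.42 to 11.79), Krt7 (5.96, against 7.98 to 8.23), Grasp (10.07, against 8.67 to 8.84), Egfl7 (13.23, against 11.75 to 11.96), Tbx20 (10.07, against 8.68 to 8.88), Plvap (9.89, against 6.74 to 7.07), Hoxc6 (11.19, against 7.95 to 8.30) and Slc32a1 (11.64, against 6.04 to 6.21). Of the other cultures, wild-type day 5 replicate 1 in Pga5 (12.41, against 14.56 to 15), Cyp26a1 (11.86, against 12.86 to 13.02) and Krt7 (7.72, against 9.15 to 9.27), wild-type day 5 replicate 4 in Vcan (9.73, against 7.95 to 8.09) and Bgn (7.96, against 5.25 to 5.69), wild-type day 6 replicate 2 in Pga5 (13.08, against 14.68 to 14.91) and Wnt3a (8.40, against 5.38 to 5.59), wild-type day 6 replicate 3 in Cd44 (8.68, against 7.47 to 7.62) and Hoxd10 (7.56, against 5.64 to 5.74) and wild-type day 6 replicate 4 in Hoxc6 (6.83, against 7.34 to 7.38) stood apart.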

How the results depend on the processing

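The counts of genes above and below all other nulls were 1362 and 1147. They became 724 and 2229 on raw log2 intensities, and 2453 and 1893 of 29453 without the filter on dim probes. Without null day 6 replicates 3 and 4, the arrays of conflicting labels, they were 1817 and 1781. Both arrays are other nulls, so fewer cultures had to be cleared. Leaving out 1 other null at a time gave 1451 to 1653 above and 1256 to 1489 below, since fewer cultures have to be cleared. Taken alone, which was added after seeing the data, null day 5 replicate 4 gave 2513 above and 2141 below, and null day 6 replicate 2 gave 1995 below. Against wild-type, the 61 genes called at day 5 and 172 at day 6 became 21 and 82 without the filter. Day 6 gave 5 without the arrays of conflicting labels, which left null day 6 replicate 1 and the divergent replicate 2. From the 8 arrays of the contrast day 5 gave 16. The replicate block gave 14 at day 5 and 90 at day 6, and 4 at day 5 without both divergent cultures, which was added after seeing the data, and at day 6 not every same-numbered pair deviated together. Leaving out 1 culture gave 11 (without wild-type day 5 replicate 2) to 178 genes (without wild-type day 5 replicate 1) at day 5, and 33 (without wild-type day 6 replicate 4) to 337 genes (without wild-type day 6 replicate 2) at day 6. Without null day 5 replicate 4 day 5 gave 22, and without null day 6 replicate 2 it gave 105. Wild-type day 6 against day 5 gave 0 genes, 0 under each left-out culture and 1 without the filter. Of 1089 values of named genes under the alternatives, 948 moved by less than 1 SD of the other nulls, 140 by more, and 1 changed sign (Rax, -0.12 on raw log2 intensities). The causes were not tested. A slide block was not run because the headers give no slide. Genes near background have only bounds.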
